A study of Mus musculus with 6 samples.

Results

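The 10 genes described here are 5 fibroblast growth factor (FGF) ligands (*Fgf2*, *Fgf7*, *Fgf9*, *Fgf10* and *Fgf18*), 3 FGF receptors (*Fgfr1*, *Fgfr2* and *Fgfr3*) and 2 feedback inhibitors of the Sprouty family (*Spry1* and *Spry2*). They were found by gene name among the 21999 genes of a count table of mouse lung microvascular endothelial cells (LMVEC), and each name matched 1 row. RNA was sequenced from 3 isolations of *Ptprz1*+/+ mice and from 3 of mice labelled *Ptprz1*-/-, a genotype without the receptor-type protein tyrosine phosphatase PTPRZ1. All mice were of the SV129/B6 strain and all cells were untreated. For 1 isolation the lungs of 2 to 5 animals aged 3 to 8 weeks were combined, so that 1 library is a pool of animals, and the cells were grown to confluence with endothelial cell growth supplement and heparin before they were sorted on beads against CD31, an endothelial surface protein. The comparison asks whether the FGF genes of these cells differ with the *Ptprz1* genotype, a question that bears on PTPRZ1 because FGF2 is among the soluble proteins that bind to it.

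FGF ligands are secreted proteins that bind, together with heparan sulfate or its relative heparin, to receptor tyrosine kinases on the cell surface. The bound receptor passes the signal through adaptor proteins to the ERK kinases, and ERK activity in turn induces Sprouty and other inhibitors that dampen the pathway. In the lung, FGF7 and FGF10 are made by mesenchymal cells and act on the epithelium through the same splice form of FGFR2, FGF9 and FGF18 act mainly on the mesenchyme, and FGF2 is a growth factor of endothelial cells and fibroblasts.

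The total count per library was between 14496881 and 17709663. *Ptprz1* itself, the targeted gene, gave 197, 1837 and 508 counts for *Ptprz1*+/+ replicates 1, 2 and 3, and 1138, 1320 and 895 counts for the libraries labelled *Ptprz1*-/-, so its counts did not separate the genotypes and each direction given below rests on the labels. Markers of blood endothelium were low in most libraries. The summed level of 12 of them was between 24.0 and 581 CPM (counts scaled for library size with the TMM method of edgeR), against 11169 to 27835 CPM for 10 fibroblast markers, and no gene of either list was at 0 in any library. The sums are not per kilobase. The collagen genes *Col1a1*, *Col1a2* and *Col3a1* were the highest fibroblast markers, each between 2494 and 13911 CPM, whereas *Tcf21* of the same list was between 4.83 and 17.2 CPM. These levels go against the labelled cell type, so the libraries are called by their labels below. In bulk RNA, fewer cells of a type and less RNA per cell cannot be told apart.

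Among the members, the widest gap between the genotype labels lay in the ratio of *Fgf7* to *Fgf10*. Both were chosen as members with earlier results of these data known. Sequences before the RefSeq start sites of both genes are shown because this pair carries the result. *Fgf7* lies on chr2:126034658-126091185 (+ strand) and *Fgf10* on chr13:118669791-118792115 (+ strand) of GRCm38. The windows are the 250 bases before the start sites given by RefSeq for GRCm38.p6, at chr2:126034408-126034657 for *Fgf7* and at chr13:118714449-118714698 for *Fgf10*, both 5′ to 3′ on the + strand, and neither overlaps an exon of GENCODE M21. The *Fgf7* window abuts the start of the gene as the table gives it, whereas the start of *Fgf10* in RefSeq differs from that in the table, so that its window lies inside the span of the gene given above, in an intron of the longer gene model. Capitals mark the Sp1 motif GGGCGG on either strand.
Fgf7: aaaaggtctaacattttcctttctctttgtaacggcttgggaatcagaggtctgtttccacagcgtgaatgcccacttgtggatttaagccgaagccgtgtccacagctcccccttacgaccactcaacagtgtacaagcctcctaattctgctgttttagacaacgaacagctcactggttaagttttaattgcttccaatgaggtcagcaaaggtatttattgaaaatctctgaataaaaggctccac
Fgf10: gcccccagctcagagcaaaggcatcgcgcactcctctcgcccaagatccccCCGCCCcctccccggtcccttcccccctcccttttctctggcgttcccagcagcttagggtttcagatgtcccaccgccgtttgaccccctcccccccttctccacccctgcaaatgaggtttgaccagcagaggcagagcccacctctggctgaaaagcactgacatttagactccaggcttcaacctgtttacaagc
The *Fgf7* window was 43.6% G and C and the *Fgf10* window 61.2%, against a median of 52.4% over the windows of all genes. Both windows were searched on both strands for 6 short motifs. The share of 32851 promoter windows that hold each was 12.4% for TATAAA of the core promoter, 12% for CCGGAA of ETS factors, 6.75% for TGANTCA of the AP-1 factors, 12.6% for GGAATG of TEAD factors, 1.55% for the CREB motif TGACGTCA and 32.7% for GGGCGG. The *Fgf10* window held 1 Sp1 motif and none of the others, and the *Fgf7* window held none of the 6, which says only that these letters are not in the window.

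*Fgf7* (keratinocyte growth factor, ENSMUSG00000027208) gave 154, 212 and 196 CPM across *Ptprz1*+/+ replicates 1, 2 and 3, and 43.9, 194 and 105 CPM across the libraries labelled *Ptprz1*-/-. *Fgf10* (ENSMUSG00000021732), which is needed for the lung to form, was at 37.6, 53.9 and 45.9 CPM and at 27.4, 136 and 52.6 CPM in the same order. Taken alone, neither gene separated the groups, because replicate 2 of the libraries labelled *Ptprz1*-/- lay within the *Ptprz1*+/+ range for *Fgf7*, and replicates 1 and 3 lay below and within it for *Fgf10*. The log2 fold change of the libraries labelled *Ptprz1*-/- against *Ptprz1*+/+ was -0.71 (standard error 0.50, 95% interval -1.91 to 0.48) for *Fgf7* and 0.65 (standard error 0.55, 95% interval -0.67 to 1.98) for *Fgf10*. With 1 library left out the value ran from -1.33 to -0.32 for *Fgf7*, whereas that of *Fgf10* turned to -0.20 without replicate 2 of the libraries labelled *Ptprz1*-/-. Under edgeR's quasi-likelihood model neither passed the threshold of 0.05, with an adjusted p of 1.00 for both. The same held for all 8 members that were tested, of which 0 had an unadjusted p under 0.05. Over the whole table, 0 of 13609 genes passed (0%), and 366 (2.69%) had an unadjusted p under 0.05. DESeq2 called 30 genes (0.221%) and edgeR's likelihood ratio test 17 (0.125%), none of them a member.

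Relative to each other, the 2 ligands did separate the groups. The level of *Fgf7* per kilobase of transcript was 6.32, 6.05 and 6.58 times that of *Fgf10* in the *Ptprz1*+/+ libraries and 2.46, 2.20 and 3.07 times that of *Fgf10* in the libraries labelled *Ptprz1*-/-. On the log2 scale the ratio was 2.66 ± 0.062 against 1.35 ± 0.24 (SD, n = 3 each), a difference of -1.31. The groups did not overlap, and the gap between the nearest libraries, 0.98 log2 units, exceeded the spread within either group. By exact two-sided permutation p was 0.10, the smallest that 3 libraries against 3 allow. The ratio does not depend on how the libraries are scaled, nor does its difference depend on the gene lengths used. Leaving out each library in turn, the difference stayed between -1.44 and -1.20. Of the tested genes within 1 Mb of *Fgf10*, a window chosen after the data were seen, 45.5% did not overlap between the groups, against 7.28% of all tested genes. Whether these surroundings of *Fgf10* bear on the ratio was not tested.

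The ratio was 1 of 4 planned measures, beside the log2 ratios of *Fgfr1* to *Fgfr2* and of *Spry2* to *Spry1* and the *Fgfr1* share of the receptor level. It was the only one of them without overlap, and many more ratios were then computed. Over all 28 pairs of the 8 tested members, the ratios of 3 pairs did not overlap between the groups, and all 3 involved *Fgf7*. For *Fgf2* with *Fgf7* and for *Fgf7* with *Spry2* the gap was only 0.052 and 0.068 log2 units. Set against every other tested gene in the same way, the ratio of *Fgf7* did not overlap for 1116 of 13608 genes (8.2%), and that of *Fgf10* for 215 (1.58%). A gap wider than that between *Fgf7* and *Fgf10* was found with 18 genes for *Fgf7* and with 17 genes for *Fgf10*. The sum of the 2 ligands gave 192, 265 and 242 CPM across the *Ptprz1*+/+ libraries and 71.3, 331 and 157 CPM across those labelled *Ptprz1*-/-. The sum overlapped between the groups (exact two-sided permutation p = 0.60), and the ratio did not.

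**Figure D1:**
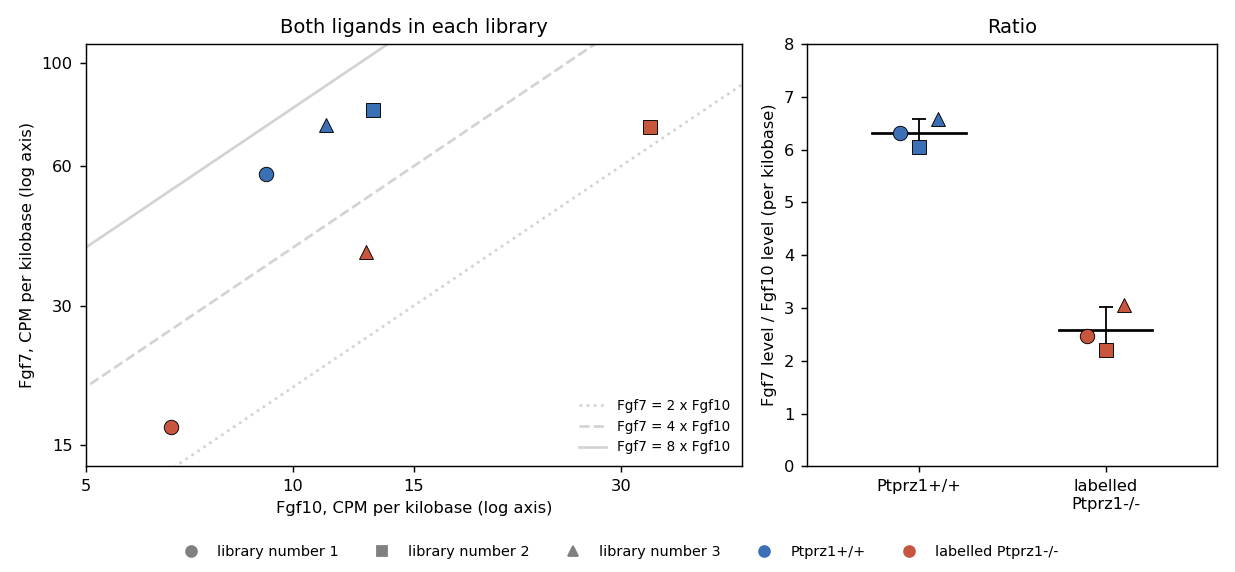
Left, the level of Fgf7 against that of Fgf10 in each library, both in CPM per kilobase on log axes, with grey lines of constant ratio. Right, the ratio of both levels per library, with the mean and SD of each group (n = 3). The Ptprz1+/+ libraries sit between 6.05 and 6.58 and the libraries labelled Ptprz1-/- between 2.20 and 3.07, although their levels differ widely along the lines.

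*Fgf2* (basic FGF, ENSMUSG00000037225, chr3:37312519-37405377, + strand) was the only member whose own level did not overlap between the groups. It gave 6.10, 7.92 and 3.28 CPM across *Ptprz1*+/+ replicates 1, 2 and 3, and 17.1, 7.96 and 7.99 CPM across the libraries labelled *Ptprz1*-/-. The mean was 5.77 ± 2.34 CPM against 11.0 ± 5.24 CPM (SD, n = 3 each), a log2 fold change of 0.93 (standard error 0.45, 95% interval -0.15 to 2.01). Replicates 2 and 3 of the libraries labelled *Ptprz1*-/- lay just above *Ptprz1*+/+ replicate 2, and with upper-quartile scaling or total counts the groups overlapped. Across all tested genes, 7.28% did not overlap in either direction and 3.55% were higher in the libraries labelled *Ptprz1*-/- without overlap, so that 1 of 8 tested members is near that background. By exact two-sided permutation p was 0.10, and the adjusted p from edgeR was 1.00.

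The *Fgf2* value rested in large part on 1 library. Without replicate 1 of the libraries labelled *Ptprz1*-/-, which had the highest level, the log2 fold change was 0.47 (standard error 0.41). The same library had the highest level of each of 6 mesothelial markers, with a summed level of 1380 CPM against 55.8 to 217 CPM in the *Ptprz1*+/+ libraries and 115 and 279 CPM in the other 2 libraries labelled *Ptprz1*-/-. It was also the lowest library for *Fgf7*, *Fgf10* and *Spry2*. For *Fgf9* and *Fgfr3* it was the highest, but on only 8 and 23 counts. *Ptprz1*+/+ replicate 2 had 8 counts of *Fgf9* as well, and *Ptprz1*+/+ replicate 3 had 16 of *Fgfr3*. The part of mesothelial cells in the levels of the members was not tested. The ratio of *Fgf7* to *Fgf10* differed by -1.28 log2 units without replicate 1 of the libraries labelled *Ptprz1*-/-. In GENCODE M21, exons of *Fgf2* overlap those of *Nudt6* on the opposite strand over 640 bases. That is 9.44% of the 6782 bases of its merged exons. The overlap with the 1240 bases that the count table gives *Fgf2* was not computed. The use of strand in counting is not given in the sources used here. *Nudt6* had between 28 and 91 counts and *Fgf2* between 52 and 275. How many *Fgf2* counts come from the other strand is not known, so the *Fgf2* level is uncertain.

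*Fgf18* (ENSMUSG00000057967, chr11:33117430-33147400, - strand), which is needed for lung alveoli and for bone growth, gave 7.67, 2.36 and 6.94 CPM across the *Ptprz1*+/+ libraries and 8.44, 6.86 and 10.6 CPM across the libraries labelled *Ptprz1*-/-. One *Ptprz1*+/+ library, replicate 2, lay far below the other 5, and the groups overlapped. The log2 fold change was 0.61 (standard error 0.46), and 0.24 without that library. *Fgf9* (ENSMUSG00000021974, chr14:58070547-58112337, + strand), a ligand of the lung mesothelium and epithelium, was barely read, with 3, 8 and 3 counts in the *Ptprz1*+/+ libraries and 8, 3 and 5 counts in those labelled *Ptprz1*-/-. It was under the filter on low counts, so that it did not enter the test described here. Without the filter its log2 fold change was 0.35 (standard error 0.70, edgeR adjusted p = 0.98).

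**Figure D2:**
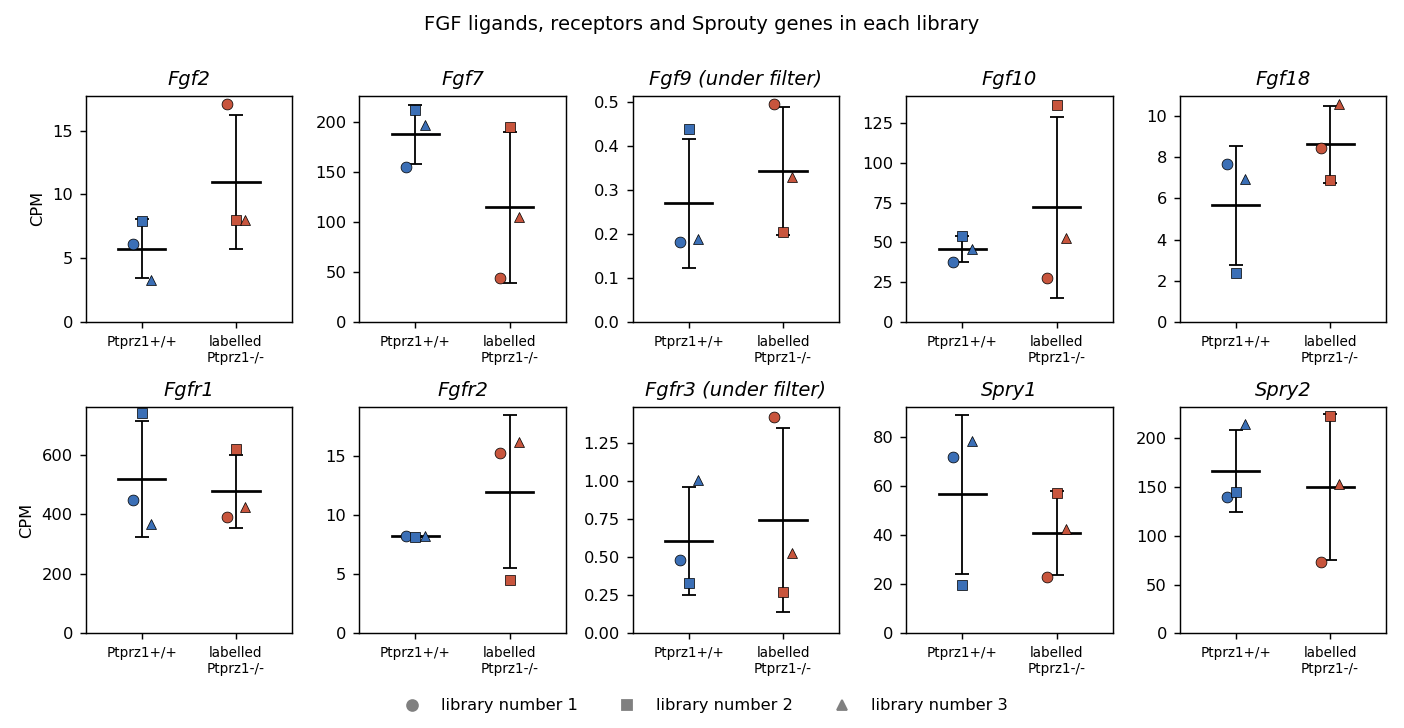
Level of each of the 10 genes in each library, in CPM on TMM-scaled library sizes, by genotype label. Points are libraries, with the shape giving the library number, and lines are the mean and SD (n = 3). Only Fgf2 has groups that do not overlap, by a narrow margin, and Fgf9 and Fgfr3 rest on at most 8 and 23 counts.

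Among the 5 ligands, levels per length show how their mix differed. *Fgf7* took 73.2%, 78.4% and 78.4% of the summed ligand level per kilobase in the *Ptprz1*+/+ libraries and 36.7%, 61.3% and 57.4% in the libraries labelled *Ptprz1*-/-. *Fgf10* took 11.6%, 13.0% and 11.9% against 14.9%, 27.9% and 18.7%. Both shares separated the groups, that of *Fgf7* downward and that of *Fgf10* upward, and both are given as descriptions, since they were chosen after the values were seen. As parts of the same sum they are not separate results, and a higher share is not a higher level. In replicate 1 labelled *Ptprz1*-/- the *Fgf10* share was above the *Ptprz1*+/+ range, while the *Fgf10* level, 27.4 CPM, was the lowest of all libraries. *Fgf2* took between 2.82% and 6.32% in the *Ptprz1*+/+ libraries, and 30.7%, 5.41% and 9.44% in those labelled *Ptprz1*-/-. *Fgf18* took from 2.16% to 8.94% and from 5.33% to 17.4%, and *Fgf9* at most 0.345%. The *Fgf2* share depends on the length used for it. The table gives *Fgf2* 1240 bases and the merged exons of GENCODE M21 hold 6782, and with the latter its share ran from 0.630% to 1.46% across the *Ptprz1*+/+ libraries and from 1.22% to 8.62% across the others. With these lengths *Fgf7* still took 75.3% to 81.3% against 46.3% to 62.1%, and *Fgf10* 13.0% to 14.6% against 20.4% to 30.7%.

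**Figure D3:**
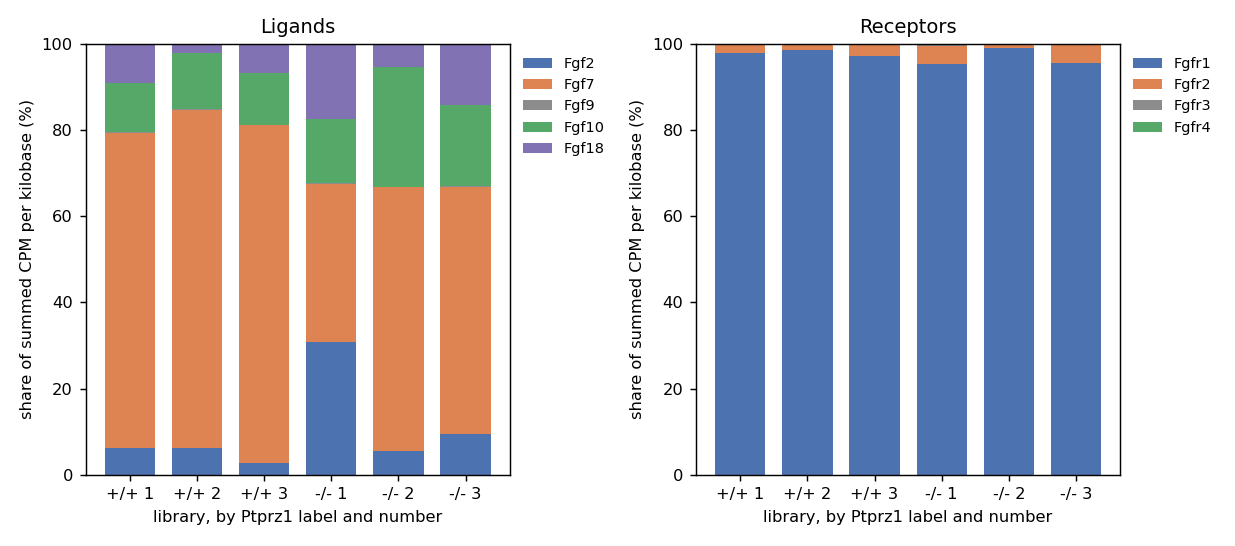
Make-up of the levels of the 5 member ligands (left) and of the 3 member receptors with Fgfr4 (right) in each library, as the percentage of the summed CPM per kilobase. Ligands outside the members, such as Fgf23, are not in the sum. The Fgf7 part of the ligand bars is 73.2% to 78.4% in the Ptprz1+/+ libraries and 36.7% to 61.3% in those labelled Ptprz1-/-, and Fgfr1 fills 95.3% to 99.1% of every receptor bar.

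The receptors were dominated by *Fgfr1* (ENSMUSG00000031565, chr8:25513654-25575714, + strand), the main FGF receptor of mesenchymal cells. It gave 449, 741 and 368 CPM across *Ptprz1*+/+ replicates 1, 2 and 3, and 390.4, 618 and 425 CPM across the libraries labelled *Ptprz1*-/-. Replicate 2 was highest in both groups, which overlapped throughout, and the log2 fold change was -0.12 (standard error 0.32, 95% interval -0.89 to 0.65). The interval thus leaves room for changes of either sign. *Fgfr1* took 97.8%, 98.7% and 97.2% of the level per kilobase summed over the 3 receptors and *Fgfr4*, which had at most 3 counts in any library, in the *Ptprz1*+/+ libraries and 95.3%, 99.1% and 95.7% in the others (difference of means -1.19 percentage points, exact two-sided permutation p = 0.40).

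*Fgfr2* (ENSMUSG00000030849, chr7:130162451-133123350, - strand), which carries the FGF7 and FGF10 signal in epithelium, gave 8.22, 8.14 and 8.20 CPM across the *Ptprz1*+/+ libraries, an SD of 0.043. In those labelled *Ptprz1*-/- it was at 15.2, 4.53 and 16.2 CPM. All 3 of the latter lay outside the narrow *Ptprz1*+/+ range, replicates 1 and 3 above it and replicate 2 below it, so that the groups were interleaved and the exact permutation p was 0.40. The log2 fold change was 0.55 (standard error 0.46), with 0.94 without replicate 2 of the libraries labelled *Ptprz1*-/-. The level of *Fgfr1* per kilobase was 48.0, 80.0 and 39.5 times that of *Fgfr2* in the *Ptprz1*+/+ libraries and 22.6, 119.9 and 23.1 times in the others (log2 difference -0.43, exact permutation p = 0.60). Counts per gene do not tell the splice forms of *Fgfr2* apart, so the form that binds FGF7 and FGF10 was not tested. The gene model behind the coordinates of *Fgfr2* is unusually long, at 2961 kb. That of *Fgf10*, the next longest of the members, spans 122 kb. The *Fgfr2* exons also share 314 bases with *Ctbp2* on the same strand, which had between 552 and 822 counts where *Fgfr2* had between 66 and 245. Epithelial markers were nearly unread, with a summed level of at most 0.880 CPM over 5 genes, each of which was at 0 in some library.

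*Fgfr3* (ENSMUSG00000054252, chr5:33721724-33737068, + strand), a receptor known as a brake on bone growth, had 8, 6 and 16 counts in the *Ptprz1*+/+ libraries and 23, 4 and 8 counts in those labelled *Ptprz1*-/-. It was under the filter on low counts, so that it did not enter the test described here. Without the filter the log2 fold change was 0.31 (standard error 0.75, edgeR adjusted p = 0.98).

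The Sprouty genes encode intracellular inhibitors that receptor tyrosine kinase signals induce. *Spry1* (ENSMUSG00000037211, chr3:37639947-37644598, + strand) gave 71.8, 19.6 and 78.4 CPM across the *Ptprz1*+/+ libraries and 22.8, 57.0 and 42.3 CPM across those labelled *Ptprz1*-/-. *Spry2* (ENSMUSG00000022114, chr14:105891949-105896819, - strand) was at 140.1, 145 and 215 CPM and at 73.4, 223 and 153 CPM in the same order. Neither separated the groups, and each spread at least as widely within a group as between them. The log2 fold change was -0.47 (standard error 0.56) for *Spry1* and -0.15 (standard error 0.40) for *Spry2*, and edgeR's quasi-likelihood test gave an adjusted p of 1.00 for both. The direction of *Spry2* turned to 0.18 without replicate 1 of the libraries labelled *Ptprz1*-/-. In every library *Spry2* was higher than *Spry1* per kilobase, by 2.60, 9.83 and 3.65 times in the *Ptprz1*+/+ libraries and by 4.28, 5.20 and 4.81 times in the others. The latter lay within the former (log2 difference 0.067, exact permutation p = 1.00). An unnamed antisense transcript, *Gm42922*, covers 24.4% of the *Spry1* exons in GENCODE M21, so *Spry1* is uncertain to the extent that counting did not use strand. The same limit holds for other members with antisense overlap, over 13.9% of the exons of *Fgfr3*, 2.67% of *Fgf10* and 1.66% of *Fgfr1*.

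**Figure D4:**
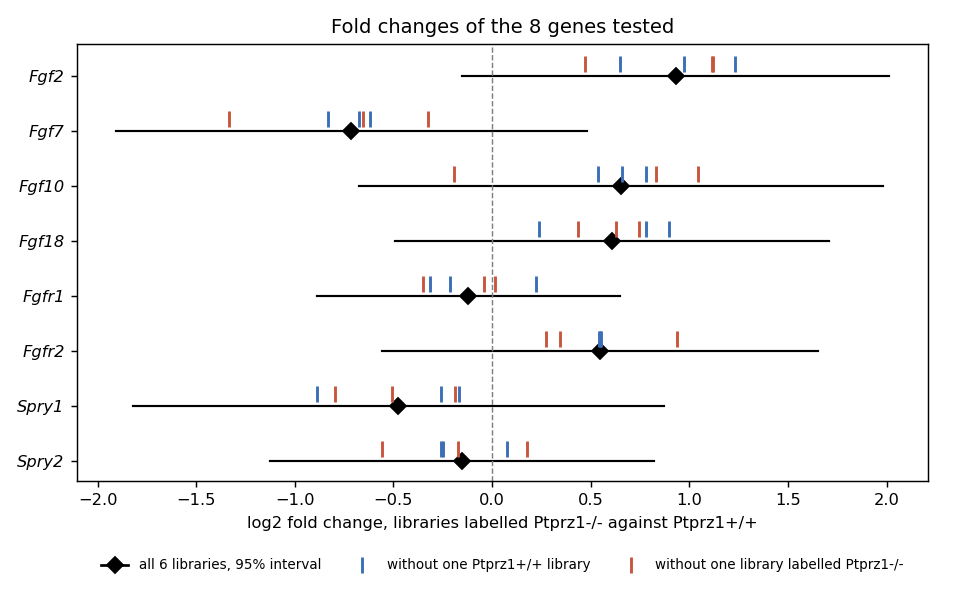
Log2 fold change of the 8 tested genes between the libraries labelled Ptprz1-/- and the Ptprz1+/+ libraries. Diamonds and lines are the value and 95% interval from all 6 libraries (edgeR), and ticks are the values with 1 library left out. All 8 intervals include 0, and the ticks of Fgf10, Fgfr1 and Spry2 fall on both sides of it.

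Ranked by the median level per kilobase over the 6 libraries, the order was *Fgfr1* (86.7 CPM per kilobase), *Spry2* (71.4), *Fgf7* (65.3), *Spry1* (17.9), *Fgf10* (12.0), *Fgf18* (6.73), *Fgf2* (6.40), *Fgfr2* (1.85), *Fgfr3* (0.119) and *Fgf9* (0.0835). The steps from *Fgf7* to *Spry1*, from *Fgf2* to *Fgfr2* and from *Fgfr2* to *Fgfr3* held in all 6 libraries. *Fgf18* and *Fgf2* each were the higher of the pair in 3 libraries, and *Spry1* was above *Fgf10* in 4. The other neighbours kept their order in 5 of the 6. With the exon lengths of GENCODE M21, the first 3 places went to *Spry2*, *Fgf7* and *Fgfr1*, and the other places did not move.

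The members varied more between libraries than most genes did. The highest library was above the lowest by 5.20 times for *Fgf2*, 4.97 for *Fgf10*, 4.82 for *Fgf7*, 4.47 for *Fgf18*, 4.004 for *Spry1*, 3.57 for *Fgfr2*, 3.04 for *Spry2* and 2.01 for *Fgfr1*, where the median over all tested genes was 1.71. The first 4, all ligands, each spanned a wider range than at least 86.4% of the tested genes, and *Fgfr1* a wider one than 61.6%. Of the tested members, *Fgf7* and *Spry2* had the most alike patterns over the 6 libraries (root mean square difference of centred log2 CPM 0.42).

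Genes outside the family that came closest to the 4 members spanning over 2 log2 units were found by the same measure over the same 6 libraries. *Fgf7* was closest to *Ccl7* (0.11), *Gm14488* (0.19) and *Tm4sf1* (0.23), where the median distance of *Fgf7* to all tested genes was 0.85. For *Fgf18* the closest was *Il18bp* (0.062), and for *Fgf2* it was *Aldh1a2* (0.22). *Fgf10* had no gene as near, with *Slc2a9* at 0.25 as the closest. These likenesses rest on 6 libraries and on a choice among 13608 genes.

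**Figure D5:**
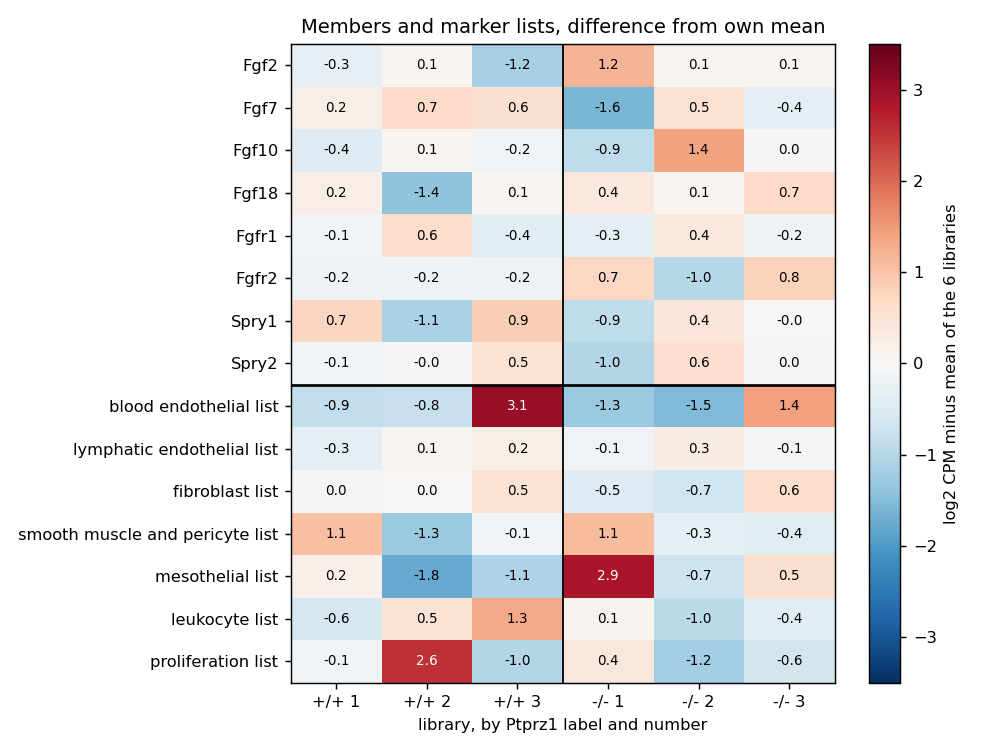
Level of the 8 tested genes and summed level of 7 lists of cell type and state markers in each library, as log2 CPM minus the mean of the 6 libraries. Fgf2 and the mesothelial list are both highest in library 1 labelled Ptprz1-/-, and the blood endothelial list is highest in library 3 of each label.

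The levels of cell type markers in each library stand beside those of the members in the map of members and marker lists. The blood endothelial list was highest in *Ptprz1*+/+ replicate 3 (581 CPM) and next in replicate 3 of the libraries labelled *Ptprz1*-/- (190 CPM), and was between 24.0 and 40.2 CPM in the other 4. Of the members, *Spry1* was highest in the former library and *Fgf18* and *Fgfr2* in the latter. The lowest *Fgf2* level, 3.28 CPM, was in *Ptprz1*+/+ replicate 3. Proliferation genes were highest in *Ptprz1*+/+ replicate 2, at 708 CPM against 51.8 to 157 CPM elsewhere, the library with the highest *Fgfr1* and *Fgf7* and the lowest *Spry1* and *Fgf18*. The fibroblast list was at 18609, 18350 and 26344 CPM across the *Ptprz1*+/+ libraries and at 13227, 11169 and 27835 CPM across the others, so that the groups overlapped. Of its 10 genes only *Thy1*, named after its values were seen, did not overlap. Its log2 fold change was -0.86 (standard error 0.22, edgeR, unadjusted p = 0.0075 and adjusted p = 1.00), and it was lowest in replicate 1 of the libraries labelled *Ptprz1*-/-, as *Fgf7* was. The lymphatic list was even only as a sum, from 232 to 342 CPM, most of which was *Pdpn* (202 to 283 CPM). From the lowest library to the highest, *Pdpn* differed by 1.40 times, but *Lyve1* by 54.3, *Prox1* by 8.27 and *Flt4* by 4.29 times. *Lyve1*, *Prox1* and *Flt4* were each highest in *Ptprz1*+/+ replicate 3, as the blood endothelial list was. Smooth muscle and pericyte markers were between 866 and 4611 CPM and highest in replicate 1 of each label, at 4435 CPM in *Ptprz1*+/+ and 4611 CPM in the other. Leukocyte markers were between 10.6 and 51.4 CPM. The part of these cells and states in the members' levels was not tested.

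Of 48 further genes of the pathway, 42 were in the table and 33 were tested. With edgeR 0 passed the adjusted threshold and 1 of the 33, *Il17rd*, had an unadjusted p under 0.05, near the 2.69% of all tested genes, and DESeq2 and edgeR's likelihood ratio test also called 0. Of the 33, 18 had a log2 fold change above 0 and 15 below 0, and the median was 0.077, where the median over all tested genes was -0.0047. Among 14 other feedback inhibitors and ERK-induced genes, 13 were tested, 10 of them with a log2 fold change above 0 (median 0.21). Among 8 adaptors, all tested, the median was 0.036, and it was -0.16 for the 5 tested co-receptors and binding proteins and -0.15 for the 7 other ligands tested.

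*Il17rd* (Sef), a membrane protein that inhibits FGF receptor signalling, lies outside the rule for named genes and was chosen after its values were seen. It gave 14.4, 8.25 and 18.9 CPM across the *Ptprz1*+/+ libraries and 37.2, 21.4 and 23.6 CPM across those labelled *Ptprz1*-/-. With edgeR its log2 fold change came to 0.99 (standard error 0.36, unadjusted p = 0.031 and adjusted p = 1.00). It was the only 1 of the 33 tested pathway genes whose groups did not overlap (3.03%), a share below the 7.28% of all tested genes. As for *Fgf2*, the highest level was in replicate 1 of the libraries labelled *Ptprz1*-/-.

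*Egr1*, an immediate early transcription factor induced by ERK, gave 26.2, 90.0 and 213 CPM across the *Ptprz1*+/+ libraries and 22.5, 421 and 219 CPM across the others, a log2 fold change of 1.01 with a standard error of 1.08. *Fgf23*, a hormone that acts on the kidney, was at 8.76, 12.0 and 31.0 CPM and at 2.61, 52.1 and 23.4 CPM in the same order. Both genes spread far wider between libraries of 1 genotype than the genotypes differed, by 18.8 and 20.0 times from the lowest library to the highest. *Spred1*, *Spred2* and *Dusp4*, inhibitors of the ERK cascade, had log2 fold changes of 0.077, 0.28 and 0.15. The adaptors *Shc1*, *Ptpn11*, *Plcg1* and *Grb2*, which couple the receptors to ERK and to phospholipase signalling, were more even, with log2 fold changes of -0.15, 0.12, -0.026 and -0.0043 and standard errors between 0.12 and 0.22. *Flrt2*, a membrane protein that can bind FGF receptors, and *Fgfrl1*, a receptor with no kinase, were at -0.17 and -0.27, and *Fgfbp3* and *Flrt3* at -0.10 and -0.16. The other ligands were low. *Fgf1* and *Fgf11* were at most at 5.06 and 6.08 CPM, with log2 fold changes of -0.72 (standard error 0.61) and -0.21 (standard error 0.67). *Fgf21*, a metabolic hormone, had 29, 0 and 1 counts in the *Ptprz1*+/+ libraries and 50, 12 and 6 counts in those labelled *Ptprz1*-/-.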

How the data were processed

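The authors deposited 1 table of 21999 genes with the read counts per gene and library, not normalized. The same table's FPKM values, deposited beside them, equal the counts over gene length and total count and were not used further. The columns of the authors' own comparison and the lists of called genes hold fold changes and p-values and were not used. The submitters' processing notes name STAR, HTSeq, TopHat, DESeq2 and edgeR without their roles, and the builds GRCm38 and mm10. Annotation release and use of strand are not given in the sources used here.

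All genes entered 1 quasi-likelihood fit on genotype (edgeR 4.0.16, R 4.3.3, TMM scaling, filterByExpr), and p-values were adjusted over 13609 genes by the Benjamini-Hochberg method. Standard errors were obtained by dividing the size of each log2 fold change by the square root of its F statistic. CPM are on the TMM-scaled library size. Levels of different genes were compared per kilobase of the table's gene length. For shares and ratios an exact two-sided permutation test was used, whose smallest p is 0.10 here. Likeness of patterns was measured on log2 CPM with a prior count of 2. The 3 libraries of a genotype are separate isolations. All libraries differed in their counts. Scripts were tested on simulated data with known changes.

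The alternatives were DESeq2 1.42.0, edgeR's likelihood ratio test, limma 3.58.1 (voom), upper-quartile scaling, no filter, at least 10 counts in every library, the replicate number as a block, each library left out, and both libraries numbered 3 left out. Added after the data were seen were total counts as scaling, the lengths of GENCODE M21 exons and the values of *Fgf9* and *Fgfr3*, which the filter removed. Genes named are the 10 members, the 4 highest of each list of further pathway genes, and the 3 genes most like each member spanning over 2 log2 units, of which the closest are given. The members and lists were chosen with earlier results of these data known. The RefSeq table held promoter windows for 9 of the 10 members. Windows inside annotated exons are not printed.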

Additional observations from a re-analysis of the deposited data

How the results depend on the processing

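The number of genes past an adjusted p of 0.05 was 0 with edgeR, whether tested as described or with upper-quartile scaling, no filter, at least 10 counts in every library, limma voom or each library left out, but 30 with DESeq2 and 17 with the likelihood ratio test. None of the members or further pathway genes passed under any setting, and the lowest adjusted p of a member was 0.803. Of 130 fold changes of members under the alternatives, 121 kept their direction and 9 reversed. *Fgf10* turned to -0.20 without replicate 2 labelled *Ptprz1*-/- (range with 1 library left out -0.20 to 1.04). *Fgfr1* was at 0.23 when *Ptprz1*+/+ replicate 2 was left out and at 0.013 without replicate 1 labelled *Ptprz1*-/- (range -0.35 to 0.23). *Spry2* was at 0.074 when *Ptprz1*+/+ replicate 3 was left out, at 0.18 without replicate 1 labelled *Ptprz1*-/- and at 0.058 without both libraries numbered 3 (range -0.56 to 0.18). *Fgf9* and *Fgfr3*, given as ratios of group means since the filter removed them, ranged from -0.011 to 0.89 and from -0.60 to 0.87, and *Fgfr3* was also below 0, at -0.0061, without *Ptprz1*+/+ replicate 2. The log2 ratio of *Spry2* to *Spry1* turned to -0.33 and -0.089 without *Ptprz1*+/+ replicates 1 and 3 and to -0.098 without both libraries numbered 3 (range -0.33 to 0.63). The cause was not tested.

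The log2 fold changes of *Fgf2* (0.47 to 1.23), *Fgf7* (-1.33 to -0.32), *Fgf18* (0.24 to 0.90), *Fgfr2* (0.27 to 0.94) and *Spry1* (-0.89 to -0.17) kept their sign with each library left out. So did the difference in the *Fgfr1* share (-2.38 to -0.50 percentage points) and in the log2 ratio of *Fgfr1* to *Fgfr2* (-1.22 to -0.019). The number of members without overlap, 1 with TMM, was 0 with upper-quartile scaling and 0 with total counts, and from 1 to 4 with 1 library left out, where fewer libraries overlap more rarely. The share of all tested genes without overlap, 7.28%, is given only for all 6 libraries with TMM. The counts under the other settings thus have no background beside them and are not read as results about the members.

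Libraries with the same number deviated together for numbers 1 and 3 (correlation 0.45 and 0.52) but not for number 2 (-0.061). The numbers were not taken as pairs in the main fit, and whether they mark a shared batch was not tested. With the replicate block, 0 genes passed and 690 had an unadjusted p under 0.05 (366 without it). *Fgf7* was then at -0.94 (standard error 0.35, edgeR unadjusted p = 0.0497 and adjusted p = 0.96) and *Fgf10* at 0.36 (standard error 0.37). *Fgf7* was the only 1 of the 8 tested members with an unadjusted p under 0.05 there. The block changed no call at the adjusted threshold. *Fgf9* and *Fgfr3* rest on at most 8 and 23 counts, which limits what they can show.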

Other observations

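The surroundings of *Fgf10* on chromosome 13 held more genes without overlap between the groups than those of the other members. Of the 11 tested genes within 1 Mb of *Fgf10*, 5 did not overlap (45.5%, against 7.28% of all tested genes), in a window chosen after the data were seen, and all 5 lay between 543 and 815 kb beyond it. *Nnt*, the mitochondrial transhydrogenase, gave 52.6, 62.9 and 49.5 CPM across the *Ptprz1*+/+ libraries and 63.8, 71.5 and 63.5 CPM across those labelled *Ptprz1*-/- (log2 fold change 0.27, standard error 0.13). *Gm21967* gave 4.71, 2.53 and 3.53 CPM and 0.496, 0.275 and 0.198 CPM in the same order. *Gm7120* and *4833420G17Rik* had log2 fold changes of -3.56 (standard error 0.61) and -1.56 (standard error 0.27), and *Paip1* of -0.22 (standard error 0.12). The *Gm7120* value rests on levels near the floor, 2.96, 1.70 and 2.46 CPM and 0.372, 0.0686 and 0.132 CPM in the same order. With edgeR the adjusted p of each of the 5 was 1.00. Around *Fgf7*, 2 of 20 tested genes within the same distance did not overlap, and around *Fgf2* 0 of 10 did not. On chromosome 3, *Fgf2* and *Spry1* lie 235 kb apart, and their log2 fold changes had opposite signs, 0.93 and -0.47.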
